A study of Homo sapiens with 2 samples.

Results

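The genes described here are 51 genes of DNA repair and of the DNA damage checkpoint, listed by name from the repair pathways. They were measured in MM.1S, a human multiple myeloma cell line, on Affymetrix HG-U133 Plus 2.0 arrays. One array held RNA of MM.1S cells cultured with plasmacytoid dendritic cells (pDCs), and 1 array held RNA of MM.1S cells cultured alone. The labels used here state no culture time, cell ratio or source of the pDCs, nor whether they were parted from the myeloma cells before RNA was extracted. With 1 array per group there is no replicate error and no test, so "higher" and "lower" describe these arrays only. The array has 108 probe sets that the platform annotation assigns to exactly 1 of these genes. They cover 46 of the 51 genes, out of 19775 genes and 41091 such probe sets in all. BRCA2, RBBP8, FANCA, FANCD2 and PMS2 had no such probe set and were not analysed here.

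Cells mend DNA by several routes. Homologous recombination copies an intact sister strand to repair broken chromosomes, and the Fanconi anaemia pathway unhooks crosslinks and hands the break to recombination. Mismatch repair corrects errors of replication, excision repair removes damaged bases or bulky lesions, and end joining rejoins broken ends without a template. Checkpoint kinases and their adaptors halt the cycle while repair goes on. In myeloma cells these routes bear on the response to melphalan, an alkylating drug whose crosslinks they repair, and in B-lineage cells some of them also act in antibody gene rearrangement.

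The ratios of repair genes between co-culture and MM.1S alone centred slightly above those of other genes, and few were wide. Each gene is described first by its brightest probe set, the one whose mean log2 signal was highest. The log2 ratio is the signal in co-culture minus the signal alone on the log2 scale. Signals under the median of an array were set to that median, called the floor here (115.9 in co-culture, 124.0 alone), so a gene under it on 1 array has only a bound. A gene or probe set with both signals above the floor is called fully measured here. Of the 46 genes, 44 were fully measured, FANCM and FANCB passed the floor in co-culture only, and 0 were below it on both arrays. The 44 had a median log2 ratio of 0.15, with quartiles at -0.20 and 0.35 and 29 positive. The 11522 fully measured genes of the whole array had a median of -0.03, with quartiles at -0.36 and 0.30 and 5491 positive. The lowest and highest ratios of the 44 were -0.75 for CHEK2 and 0.87 for FANCI.

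At 2-fold, 1 of 46 repair genes was higher in co-culture, where 3.16% of all genes were, and 0 of 46 were lower, where 4.51% of all genes were. At 1.5-fold, 5 of 46 (10.9%) were higher, against 11.5% of all genes. These were FANCM, FANCI, APEX1, UNG and TOPBP1. On the other side 3 of 46 (6.52%) were at least 1.5-fold lower, against 15.3% of all genes, namely CHEK2, ERCC1 and ERCC4. The share of higher calls was therefore close to the background, and that of lower calls was smaller. The 2 sets differ in signal: of 14408 genes in the background 2886 had only a bound, as had 2 of the 46 repair genes. The part of signal level in these shares, and in those given below, was not tested. XRCC5, at 1.49-fold higher, lay just outside the 1.5-fold limit.

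**Figure D1:**
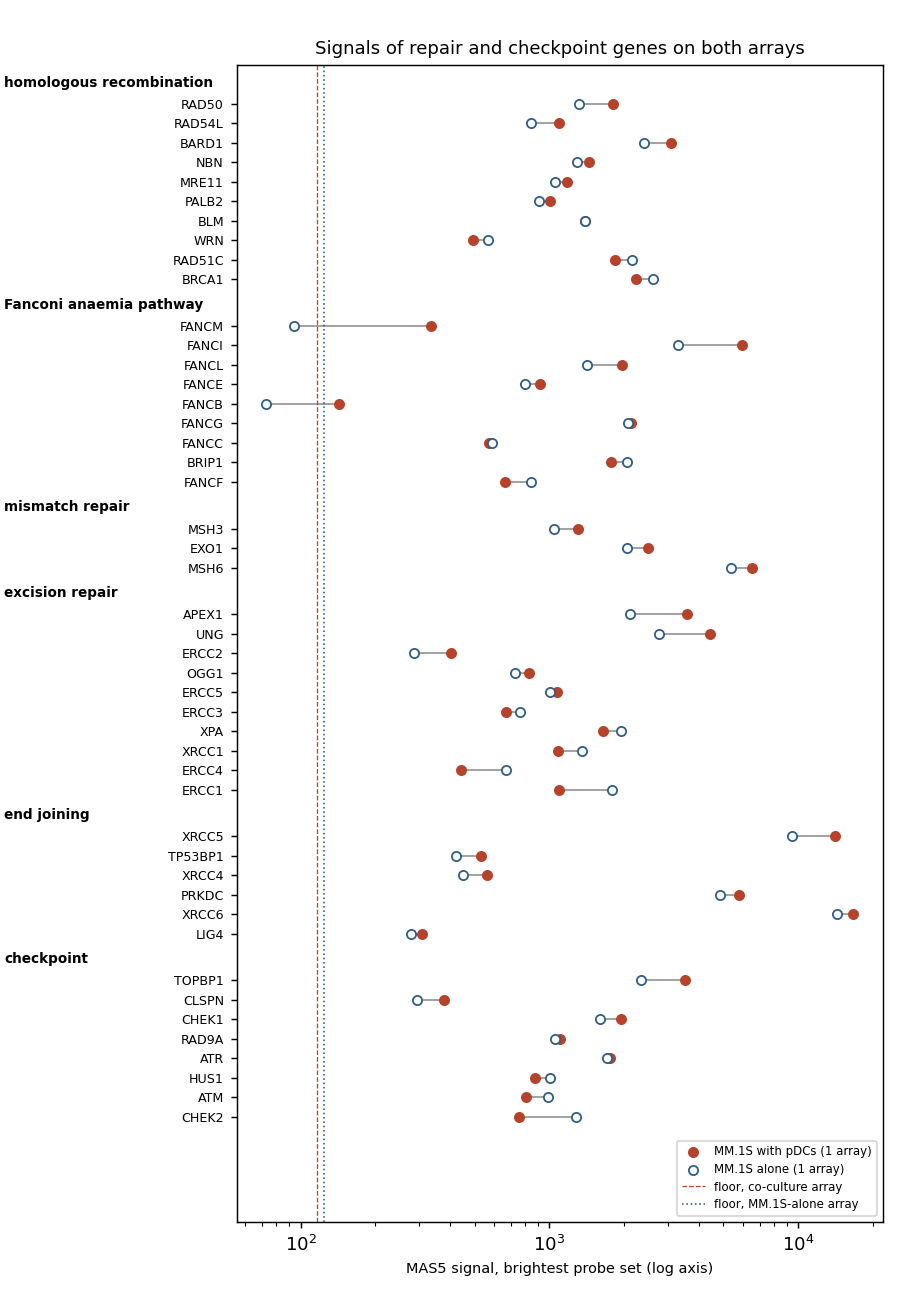
MAS5 signal (log axis) of the brightest probe set of each of 46 repair genes on the array of MM.1S with pDCs (filled) and on that of MM.1S alone (open), by pathway, with the floor of each array as a vertical line. Most pairs lie close together. FANCM and FANCI show wide gaps with the co-culture signal on the right, and CHEK2 and ERCC1 show gaps with the co-culture signal on the left.

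The 5' sequences of 6 members are shown, picked after their values were seen. The 3 measured mismatch repair genes, CLSPN and TOPBP1 had positive ratios and hold an E2F-type string, the letters to which the cell-cycle factors of the E2F family are known to bind. The windows run from 250 bases before to 50 bases after the annotated gene start, 5' to 3', and come from RefSeq on GRCh38.p14. Capitals mark any of TTTCCCGC, TTTCGCGC, TTTGCCGC or TTTGGCGC on either strand, and overlapping hits are joined. CHEK2, the member with the lowest ratio, holds none. The string did not go with the ratio throughout: FANCC holds 2 and had a log2 ratio of -0.05, and APEX1 and UNG, with higher ratios than any of the genes shown, hold none. The windows are, for MSH3, chr5:80654402-80654701 (plus strand), for MSH6, chr2:47782895-47783194 (plus strand), for EXO1, chr1:241847954-241848253 (plus strand), for CLSPN, chr1:35769929-35770228 (minus strand), for TOPBP1, chr3:133661892-133662191 (minus strand), and for CHEK2, chr22:28741771-28742070 (minus strand).
MSH3: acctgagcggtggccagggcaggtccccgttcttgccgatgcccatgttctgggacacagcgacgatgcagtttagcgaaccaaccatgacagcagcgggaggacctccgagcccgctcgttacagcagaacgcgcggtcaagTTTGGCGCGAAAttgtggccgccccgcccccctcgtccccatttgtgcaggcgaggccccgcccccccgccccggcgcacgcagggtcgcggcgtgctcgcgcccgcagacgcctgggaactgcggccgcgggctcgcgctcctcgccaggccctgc
MSH6: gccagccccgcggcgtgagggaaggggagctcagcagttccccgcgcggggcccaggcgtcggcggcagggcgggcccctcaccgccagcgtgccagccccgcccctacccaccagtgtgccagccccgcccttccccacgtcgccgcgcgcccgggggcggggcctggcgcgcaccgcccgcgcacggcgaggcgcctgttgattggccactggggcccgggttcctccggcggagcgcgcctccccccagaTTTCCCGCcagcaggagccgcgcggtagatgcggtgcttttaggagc
EXO1: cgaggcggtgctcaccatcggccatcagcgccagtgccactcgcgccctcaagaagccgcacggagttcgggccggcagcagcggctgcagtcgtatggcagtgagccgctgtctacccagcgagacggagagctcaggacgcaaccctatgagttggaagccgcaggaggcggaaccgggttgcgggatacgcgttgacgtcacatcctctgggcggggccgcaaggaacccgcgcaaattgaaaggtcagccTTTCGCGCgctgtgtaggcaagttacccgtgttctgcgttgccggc
CLSPN: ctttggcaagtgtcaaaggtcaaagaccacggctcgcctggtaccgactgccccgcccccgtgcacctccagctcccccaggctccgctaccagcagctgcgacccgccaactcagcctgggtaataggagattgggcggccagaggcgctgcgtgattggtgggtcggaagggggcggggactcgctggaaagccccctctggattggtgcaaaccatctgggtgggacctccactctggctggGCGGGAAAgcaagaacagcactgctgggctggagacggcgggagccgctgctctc
TOPBP1: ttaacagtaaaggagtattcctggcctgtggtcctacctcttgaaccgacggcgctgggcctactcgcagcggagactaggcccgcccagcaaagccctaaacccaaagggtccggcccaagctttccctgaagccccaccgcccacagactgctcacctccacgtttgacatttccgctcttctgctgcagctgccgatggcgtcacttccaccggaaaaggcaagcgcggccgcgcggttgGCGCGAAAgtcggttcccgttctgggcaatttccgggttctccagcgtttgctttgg
CHEK2: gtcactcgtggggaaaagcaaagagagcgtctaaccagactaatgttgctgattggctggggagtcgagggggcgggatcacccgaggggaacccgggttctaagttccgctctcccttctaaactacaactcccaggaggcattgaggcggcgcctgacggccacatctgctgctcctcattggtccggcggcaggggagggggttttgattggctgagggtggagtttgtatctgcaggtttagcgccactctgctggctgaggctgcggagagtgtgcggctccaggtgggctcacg

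Of the 45 members with a window in the table, 10 (22.2%) held such a string. Of the 40 of these that were above the floor on 1 or both arrays, 7 (17.5%) did, as did 4.95% of the 11530 genes with a signal above the floor and a window, and 3.33% of all 27305 windows. The 7 were all fully measured, with a median log2 ratio of 0.29 and a range of -0.05 to 0.60, and 6 of them were positive. The 31 fully measured members without the string had a median of 0.09, and 19 were positive. Among all genes the medians were 0.05 for the 499 with the string and -0.03 for the 8893 without it. The string was thus more frequent in the windows of repair genes than in those of genes at large. By the ratio of the shares, other strings were closer to the background. The CCAAT box (CCAAT) stood in 52.5% of these 40 members and 36.6% of those array genes. The ETS string CCGGAAG stood in 32.5% of the members and 17.3% of the array genes, the GC box GGGCGG in 75% and 64.7%, and the cell-cycle element TTTGAA in 10% and 10.7%. By the difference in percentage points, the CCAAT box and the ETS string were further from the background than the E2F string. The GC box can share bases with the E2F strings. A match is only a match of letters.

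Homologous recombination genes differed little on their brightest probe sets. All 10 members with a probe set were fully measured, 6 were positive, and the median log2 ratio was 0.15. In either direction 0 of 10 reached 1.5-fold, against 11.5% of all genes higher and 15.3% lower. RAD50, the coiled-coil ATPase of the MRN complex that senses broken ends, had a signal of 1808 in co-culture and 1316 alone, a log2 ratio of 0.46. BARD1, the partner of BRCA1 in its ubiquitin ligase, had 3091 in co-culture and 2389 alone (0.37). RAD54L, a motor protein that helps strand invasion, had 1089.5 in co-culture and 842 alone (0.37). These 3 were the members with the widest gaps. The other MRN subunits, the nuclease MRE11 and the scaffold NBN, had 0.15 and 0.16, and PALB2, which bridges BRCA1 and BRCA2, had 0.15. BRCA1 itself was slightly lower on its brightest probe set, with 2229 in co-culture and 2601 alone (-0.22), and averaged 0.26 over its probe sets. RAD51C, which acts in strand exchange, had -0.22. Of the RecQ helicases, WRN had -0.20 and BLM had -0.01, and BLM turned to 0.02 when the ratios were centred on their median.

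Several probe sets of these genes did not give the same ratio. BRCA1 had 0.74 on its second probe set, with 619 in co-culture and 371 alone, so its direction depends on the probe set. RAD50 had -0.76 and -0.13 on its other probe sets. BARD1 had 1.04 and 0.08. NBN was positive on all 4 probe sets above the floor, from 0.16 on the brightest to 0.99 on the dimmest, where the signals were 449.9 in co-culture and 226 alone. MRE11 was positive on all 3, although the dimmer ones were below the floor alone and give only bounds of 0.37 and 0.29.

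The Fanconi anaemia genes held the widest gaps. Of 9 measured members, 7 were fully measured with a median log2 ratio of 0.04, and 2 had a bound. At least 1.5-fold higher were 2 of 9 (22.2%), against 11.5% of all genes, and 0 were 1.5-fold lower, against 15.3%. FANCI, which forms with FANCD2 the clamp that closes on DNA at a crosslink, had a signal of 5959.7 in co-culture and 3269.8 alone, a log2 ratio of 0.87. Its second probe set had 3016 in co-culture and 1056 alone (1.51), while the third had 837 in co-culture and 897 alone (-0.10). FANCI was thus clearly higher on the brighter pair of its 3 probe sets and level on the dimmest. FANCM, the DNA translocase that recruits the core complex, had 335 in co-culture and 93.9 alone, which was below the floor, and was at least 2.71-fold higher. Another FANCM probe set went the other way, with 103 in co-culture, which was under the floor, and 161 alone, for a bound of -0.47. The remaining FANCM probe sets never passed the floor, so its 2-fold call rests on 1 probe set close to the floor.

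FANCL, the ubiquitin ligase of the pathway, had 1963 in co-culture and 1413 alone (0.47). The other core complex members lay on both sides of 0. FANCE had 0.20, FANCG 0.04, FANCC -0.05 and FANCF -0.35, and the second FANCF probe set had 0.21. FANCB, with 143 in co-culture and 72.6 alone, was at least 1.15-fold higher. BRIP1, a helicase that binds BRCA1, had -0.22 and -0.05 on its probe sets and was the only one of 22 members with at least 2 fully measured probe sets to be negative on all of them.

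The 3 measured mismatch repair genes were all higher in co-culture by about the same amount, with log2 ratios of 0.28 to 0.32. None was at least 1.5-fold higher on its brightest probe set, against 11.5% of all genes. MSH6, which binds base mismatches, had 6502 in co-culture and 5356 alone (0.28). EXO1, the exonuclease that removes the faulty strand, had 2489 in co-culture and 2039.7 alone (0.29). MSH3, which recognises small loops, had 1304 in co-culture and 1047 alone (0.32). The gaps were wider on the next probe set of MSH6, with 1899 in co-culture and 964 alone (0.98), and on that of MSH3, with 1254 in co-culture and 614 alone (1.03). All 5 probe sets of these genes above the floor were thus positive. They are also among the genes whose windows, printed above, hold an E2F-type string.

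Excision repair genes had no common direction. Of 10 members, 5 were positive and 5 negative, with a median log2 ratio of -0.04. At least 1.5-fold higher were 2 (20%), against 11.5% of all genes, and 2 (20%) were at least 1.5-fold lower, against 15.3%. The higher pair acts in base excision. APEX1, the endonuclease that cuts at sites without a base, had 3562 in co-culture and 2101 alone, a log2 ratio of 0.76. UNG, which removes uracil from DNA and acts in antibody diversification, had 4428 in co-culture and 2763 alone (0.68). Each has 1 probe set of the class that can bind several transcripts of a gene. OGG1, which removes oxidised guanine, had 0.18 on its brightest probe set and 0.53 on another. XRCC1, the scaffold of single-strand break repair, was on the other side with 1080.3 in co-culture and 1355 alone (-0.33).

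The lower pair forms a nuclease of nucleotide excision repair, and ERCC5, below, is another. ERCC1, its DNA-binding subunit, had 1097 in co-culture and 1778 alone, a log2 ratio of -0.70. Its other probe sets had -0.48 and 0.16. ERCC4, the catalytic subunit also known as XPF, had 443 in co-culture and 668 alone (-0.59), and its other probe set gave a bound of -0.61, since only its signal alone passed the floor. Both subunits were thus lower on most of their probe sets. ERCC4 sits at the 1.5-fold limit and did not reach it after centring (-0.56) or after a loess fit (-0.57). The other nucleotide excision genes showed no common direction. The TFIIH helicases ERCC2 and ERCC3 had 0.49 and -0.18, the nuclease ERCC5 had 0.09, and the damage-binding protein XPA had -0.25. A second ERCC2 probe set had 224 on both arrays.

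End joining genes were all positive on their brightest probe sets, also after centring, quantile normalization and loess, with a median log2 ratio of 0.28 over 6 members. None reached 1.5-fold on the signals as deposited, against 11.5% of all genes higher and 15.3% lower. XRCC5 passed 1.5-fold under these 3 scalings, with log2 ratios of 0.60 or more. XRCC5, which encodes the Ku80 subunit that clasps broken ends, had 14015 in co-culture and 9427 alone (0.57). Its second probe set had 8733 in co-culture and 4488 alone (0.96). XRCC6, the Ku70 subunit, had 16629 in co-culture and 14285 alone (0.22). PRKDC, the kinase DNA-PKcs that Ku recruits, had 0.25 and 0.50 on its brighter probe sets, and a bound of -0.42 on one that passed the floor alone only. Both Ku subunits and their kinase were thus modestly higher on their brightest probe sets.

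The ligation factors and the break-site adaptor were less uniform. XRCC4, the scaffold of the ligase, had 560 in co-culture and 449 alone (0.32), but its 3 other probe sets had 0.10, -0.04 and -0.51. LIG4, the ligase, had 308 in co-culture and 278 alone (0.15). TP53BP1, which shields ends from resection, had 533 in co-culture and 420.3 alone (0.34), while its second probe set had 300.1 in co-culture and 533 alone (-0.83). The mean over fully measured probe sets, an alternative added after seeing the data, gave these 6 genes a median of 0.19, with XRCC4 at -0.03 and TP53BP1 at -0.24. In the mean over all probe sets, including those under the floor, TP53BP1 had no value. The median of the other end joining genes was then -0.12. XRCC6 then had -1.52 because its second probe set had 9.87 in co-culture and 94.6 alone, both under the floor. XRCC5 (-0.21), PRKDC (-0.12) and XRCC4 (-0.03) were negative in that mean as well.

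**Figure D2:**
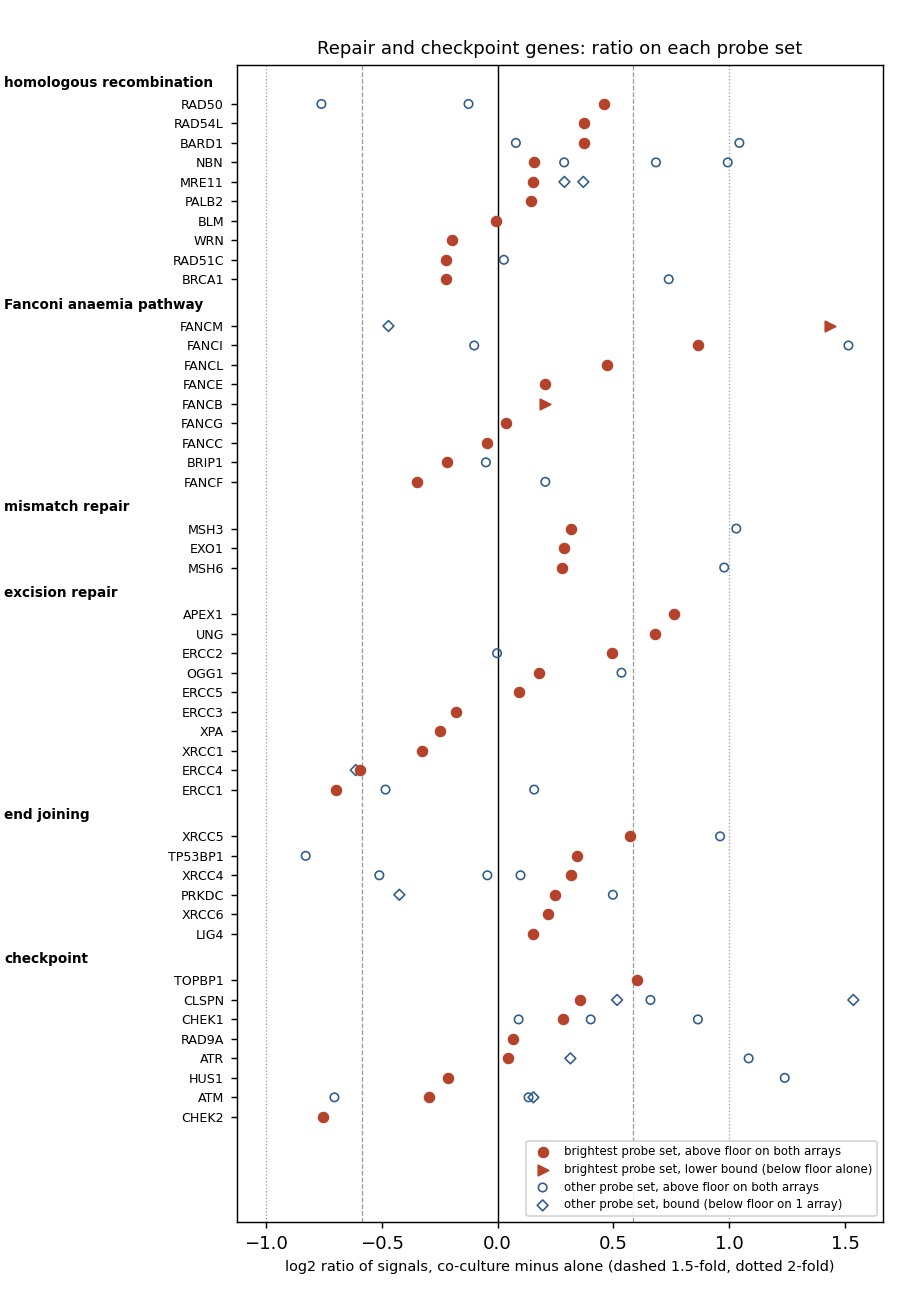
Log2 ratio of signals (co-culture minus alone) on every probe set above the floor on at least 1 array, by gene and pathway, with the brightest probe set filled and the others open; triangles and diamonds are bounds. End joining and mismatch repair genes lie to the right of 0 on their brightest probe sets, CHEK2 lies lowest of the brightest probe sets at -0.75, and several genes have probe sets on both sides of 0.

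Checkpoint genes did not move as one. Of 8 members, 5 were positive, and the median log2 ratio was 0.06. At least 1.5-fold higher was 1 (12.5%), against 11.5% of all genes, and 1 (12.5%) was at least 1.5-fold lower, against 15.3%. Both shares were near the background. CHEK2, the kinase downstream of ATM, had 756 in co-culture and 1273 alone, a log2 ratio of -0.75, on its only probe set. TOPBP1, the adaptor that switches on ATR, had 3519.9 in co-culture and 2322 alone (0.60), just past 1.5-fold, and 0.58 after quantile normalization, just under it. ATM itself was slightly lower on its brightest probe set, with 807 in co-culture and 990 alone (-0.29), and had 0.13 and -0.70 on the next ones. A further ATM probe set passed the floor in co-culture only, with 138 in co-culture and 15.6 alone, for a bound of 0.15. ATM and CHEK2 were thus lower on their brightest probe sets, but the probe sets of ATM lay on both sides of 0.

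Most genes of the ATR branch were level or higher on their brightest probe sets, and HUS1 was slightly lower. CLSPN, which encodes claspin and brings CHEK1 to ATR, had 375 in co-culture and 294 alone (0.35). Its other probe sets were positive as well. One had 355 in co-culture and 225 alone (0.66), and the others had bounds of 0.52 and 1.54. The last of these had 359 in co-culture and 40.1 alone and was at least 2.90-fold higher. CHEK1, the effector kinase of this branch, had 1942 in co-culture and 1595 alone (0.28), and its other probe sets had 0.40, 0.86 and 0.09. ATR had 1749 in co-culture and 1696 alone (0.04) on its brightest probe set and 755 in co-culture and 356 alone (1.08) on the next. The clamp subunits RAD9A and HUS1 had 0.07 and -0.21, but a second HUS1 probe set had 472 in co-culture and 200.1 alone (1.24).

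**Figure D3:**
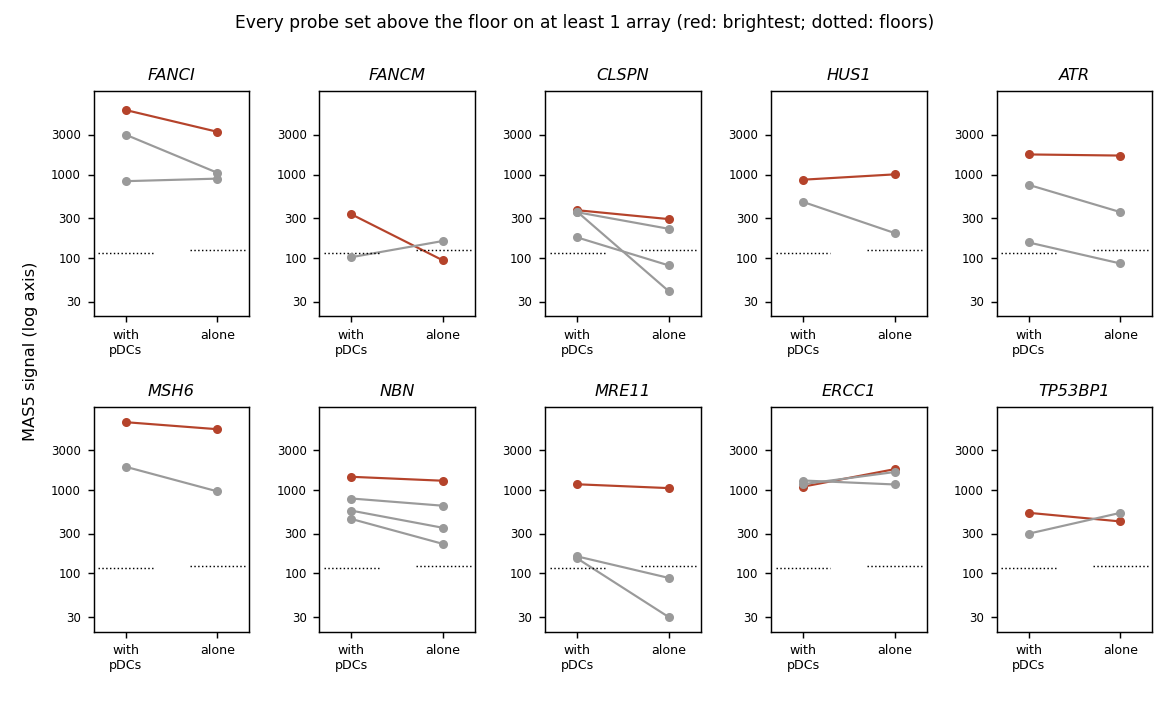
MAS5 signals (log axis) of every probe set above the floor on at least 1 array for 10 of the members, with the array of MM.1S with pDCs on the left and that of MM.1S alone on the right; red marks the brightest probe set and dotted lines the floors. In NBN, ATR and MSH6 the dimmer probe sets slope more steeply than the brightest one, and in HUS1, FANCM and TP53BP1 the probe sets run in opposite directions.

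Counted by probe set, the members had a larger share of higher calls than the array, which they did not have by gene. Lower calls were rarer than on the array in both counts. Of 108 probe sets, 88 were above the floor on at least 1 array. At least 1.5-fold higher were 18 of them (20.5%), from 15 genes, where 13.9% of all probe sets with 1 symbol were. At least 1.5-fold lower were 7 (7.95%), where 15.2% of all were. Past 2-fold were 7 higher (7.95%, against 4.19% of all) and 0 lower (against 4.67%). The 7 belonged to FANCM, FANCI, CLSPN, HUS1, ATR, BARD1 and MSH3, and in all of these except FANCM it was not the brightest probe set. Of 22 members with at least 2 fully measured probe sets, 10 were positive on all (45.5%), against 24.9% of 4844 such genes in all, and 11 were mixed (50%), against 51.0%. Probe sets of 1 gene are not independent measures of it.

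The gap between probe sets of a gene had a direction. In the 22 members, 22 of 33 dimmer probe sets (66.7%) had a higher ratio than the brightest one, by a median of 0.25 on the log2 scale. Over all such genes the share was 54.0% and the median 0.06. RNA quality differed between the arrays: the signal at the 3' end of ACTB was 8.09 times that at the 5' end in co-culture and 19.5 times alone, and for GAPDH it was 2.46 times in co-culture and 3.07 times alone. Where each probe set lies along its transcript was not analysed here, and the part of RNA quality in these gaps was not tested. Over the 44 fully measured members the log2 ratio and the length of the gene on the chromosome had a Spearman rho of 0.02, across genes that share both arrays, against 0.15 over 11517 genes.

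Other genes of the same pathways, taken with genes of translesion synthesis and direct reversal, had a median nearer to that of the array as a whole. In 7 lists of further repair genes, 108 of 119 genes were measured, and 105 were fully measured with a median log2 ratio of 0.02 and 54 positive. Of 106 with a ratio or bound, 3 (2.83%) were at least 2-fold higher, against 3.16% of all genes, and 0 were 2-fold lower, against 4.51%. At least 1.5-fold higher were 12 (11.3%), against 11.5% of all genes, and 5 (4.72%) were at least 1.5-fold lower, against 15.3%. Lower calls were thus rarer than over all genes, as among the members, while the higher calls were at the background. The 3 were ABRAXAS1, which links BRCA1 to ubiquitin at breaks, with 745 in co-culture and 319.9 alone (2.33-fold), REV3L, the catalytic subunit of the translesion polymerase zeta, with 925 in co-culture and 403 alone (2.29-fold), and XRCC2, which acts in homologous recombination, with 645 in co-culture and 315 alone (2.05-fold). By list the medians were 0.20 for further recombination genes (18 genes), 0.02 for Fanconi and crosslink genes (15), -0.03 for mismatch repair (2), -0.01 for excision repair (31), 0.21 for end joining and break signalling (14), 0.10 for checkpoint genes (12) and -0.095 for translesion synthesis and direct reversal (13).

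Genes of S phase and mitosis lay higher than the repair genes on the same arrays. Of 29, all fully measured, 25 were positive and the median log2 ratio was 0.37. At least 1.5-fold higher were 8 (27.6%), against 11.5% of all genes, and 1 (3.45%) was at least 1.5-fold lower, against 15.3%. The part of cell proliferation in the ratios of the repair genes was not tested.

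**Figure D4:**
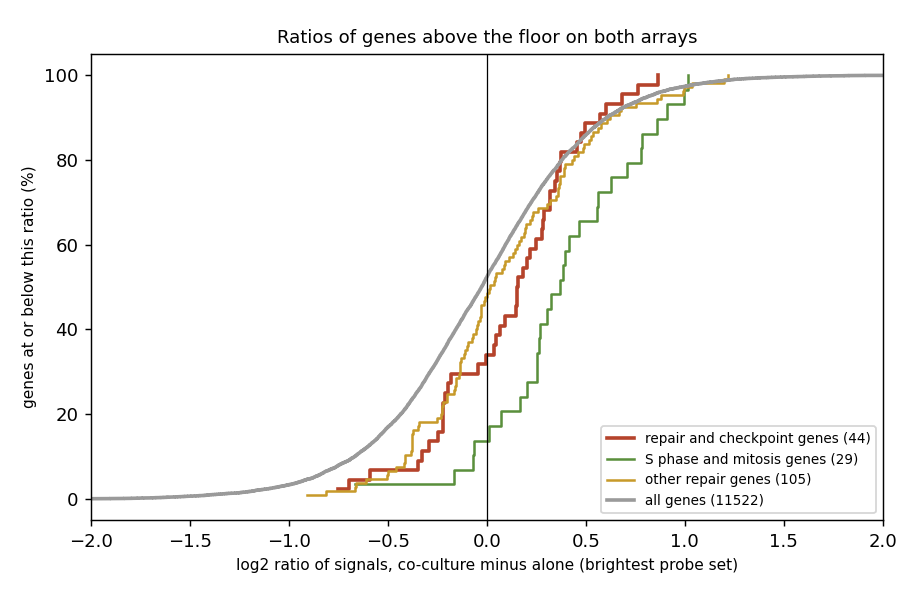
Cumulative share of genes (%) at or below a log2 ratio of signals (co-culture minus alone), over fully measured genes, for 44 repair genes, 29 genes of S phase and mitosis, 105 other repair genes and all 11522 genes. The curve of the repair genes lies to the right of that of all genes around 0 and meets it further right, and the curve of S phase and mitosis genes lies furthest to the right.

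Marker genes of several cell types were read on both arrays. All 7 plasma cell markers were fully measured, and 5 of them were lower in co-culture, with a median log2 ratio of -0.47. Of the 7, 2 (28.6%) were at least 1.5-fold lower, against 15.3% of all genes. CD38 and MZB1 had -0.67 each, XBP1 -0.48, PRDM1 -0.47 and SDC1 -0.05, while IRF4 had 0.07 and TNFRSF17 0.46. Of 12 pDC markers, 6 passed the floor in co-culture and 7 alone, and their summed signal was 6162 in co-culture and 7849 alone. TCF4, with 3569 in co-culture and 4400.4 alone, makes up most of that sum. Of the defining pDC markers, CLEC4C and IL3RA were below the floor on both arrays, while LILRA4 had 306 in co-culture and 256 alone (0.26). TLR7 passed the floor in co-culture only and was at least 1.71-fold higher. TLR9 and NRP1 passed it alone only, with TLR9 at least 2.24-fold lower and NRP1 at a bound of -0.34. GZMB had 174 in co-culture and 604 alone (-1.79), PTCRA had -0.48, IRF7 -0.28 and TCF4 -0.30. SPIB and SERPINF1 were below the floor on both arrays. Monocyte markers summed to 562 in co-culture and 1568 alone (8 measured, of which 3 passed the floor in co-culture and 5 alone). LYZ, with 17.0 in co-culture and 711 alone, makes up most of that gap. T and NK cell markers summed to 1087 in co-culture and 1107 alone (10 measured, of which 4 passed the floor on each array). The summed signals were thus lower in co-culture for pDC and monocyte markers, and nearly level for T and NK cell markers. The part of cell content in the ratios of the repair genes was not tested. The array of cells cultured alone is labelled as MM.1S only, so marker signals of other cell types there are no count of such cells. For the co-culture array it is not stated whether pDCs were in the RNA. Fewer cells of a type and less RNA per cell cannot be told apart from these signals.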

How the data were processed

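Signals of 54675 probe sets were measured on 1 array of MM.1S cells with pDCs and 1 array of MM.1S cells alone, grouped by sample title. The deposited values are linear intensity signals made by the authors with MAS5, per the submitters' processing notes; those notes name no version. Both arrays share a scale, with a mean of 500.1 after trimming 2% at each end, which hides any shift shared by the bulk of transcripts. Probe sets were named from the platform annotation by gene identifier in RefSeq of GRCh38.p14: 41091 had 1 symbol and 1801 several, 41037 matched and 0 symbols changed. Genes took their brightest probe set. The floor was the 50th percentile of each array, and genes under it on each array were left without a ratio. A single array per group permits no test, and the number of arrays sets the precision.

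The members, lists and thresholds were chosen with earlier results of these data known. Signals are given for members past 1.5-fold in each pathway or, with fewer than 3, for the 3 with the largest absolute ratios. Other members are given by their ratio, and of further repair genes those past 2-fold are named. Members named for another reason, and the 5' strings, were chosen after values were seen. Alternatives were median centring, quantile normalization, loess (span 0.3), a floor at the 30th percentile, at the 70th or absent, averaging the log2 signals of all probe sets of a gene (floored only after averaging), and no x_at or s_at probe sets; averaging over fully measured probe sets was added after seeing the data. Python 3.11.15 was used with statsmodels 0.14.6 for loess, pandas 2.3.3 and numpy 2.4.6 for the tables, scipy 1.17.1 for correlations and, for the plots, matplotlib 3.10.9.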

Additional observations from a re-analysis of the deposited data

How the results depend on the processing

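The median log2 ratio of the repair genes stayed positive under all 9 alternatives, 1 of them added after seeing the data. Of the 8 members past 1.5-fold, none changed sign where it had a value. FANCM had none under either averaging, and FANCM, APEX1, UNG and CHEK2 had none without x_at and s_at probe sets. The median of all genes moved by less than 0.1 (log2) under each scaling. A floor at the 70th percentile left 0 members 2-fold higher and gave excision repair a median of -0.18. A lower floor or none gave the Fanconi anaemia genes 0.20 in place of 0.04. Averaging all probe sets, in which signals under the floor enter as they are, gave 3 members 2-fold higher, 2 members 2-fold lower and 10 members 1.5-fold higher, with medians of 0.091 for excision repair, -0.12 for end joining and 0.41 for checkpoint genes. There HUS1 had a bound of 1.37 and ATM a bound of 0.68, since their averaged signals alone were under the floor, and XRCC6 had -1.52. Each went against the sign of its brightest probe set. XRCC5 (-0.21), RAD50 (-0.14), PRKDC (-0.12) and XRCC4 (-0.03) also turned negative in it. Averaging only fully measured probe sets (the added alternative) gave 0 members 2-fold higher and medians of 0.63 for mismatch repair and 0.46 for checkpoint genes, and kept excision repair at -0.04 and end joining at 0.19. Leaving out x_at and s_at probe sets left 40 members, gave 3 members 1.5-fold higher and medians of 0.21 for Fanconi anaemia, -0.25 for excision repair and 0.32 for checkpoint genes; RAD50 then had -0.76, and ATR (1.08) was the member past 2-fold. The genes or probe sets entering each value differ by construction in these alternatives. ERCC4 (centring, loess), TOPBP1 (quantile normalization), FANCM (higher floor) and ERCC1 (both averagings, no x_at or s_at) dropped below 1.5-fold. XRCC5 passed it under the 3 scalings and, with MSH3 and MSH6, in the mean over fully measured probe sets, and FANCB with a lower floor or none. BRCA1 turned to 0.26 in both averagings. No paired analysis was possible because each group has 1 array.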
